A study of Homo sapiens with 6 samples.

Results

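The flanks of 12 alpha satellite arrays, the 3 Mb outward from each edge of an array, were examined for replication origin peaks in U2OS, a human osteosarcoma cell line. The arrays on T2T-CHM13 lie at 92.3 to 94.7 Mb on chromosome 2, 91.7 to 96.4 Mb on chromosome 3, 49.7 to 55.2 Mb on chromosome 4, 47.0 to 49.6 Mb on chromosome 5, 58.3 to 61.1 Mb on chromosome 6 and 60.4 to 63.7 Mb on chromosome 7. The others lie at 44.2 to 46.3 Mb on chromosome 8, 51.0 to 54.4 Mb on chromosome 11, 34.6 to 37.2 Mb on chromosome 12, 23.4 to 27.6 Mb on chromosome 17, 15.4 to 20.9 Mb on chromosome 18 and 26.4 to 29.9 Mb on chromosome 20. A peak is a member if it starts in one of these 24 flanks, by position alone. Members numbered 6737 of 330265 peaks in siORCA 1, 4375 of 198518 in siORCA 2, 3585 of 181215 in control 1 and 4866 of 235865 in control 2, which is 19563 of 945863 over the 4 lists. Merged over the lists, they form 10936 of 535576 regions.

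The cells were transfected with an siRNA against ORCA (siORCA, 2 samples) or with the control siRNA gl3 (control, 2 samples), and nascent-strand DNA was sequenced from each. Nascent-strand sequencing (NS-seq) reads short DNA strands that have just been started at origins, after size selection and digestion of DNA that lacks an RNA primer. No label says that the replicates are separate cultures, and a p-value here therefore reflects no more than sample-to-sample spread, possibly technical. The level of ORCA was not measured by this assay, and whether the siRNA lowered it is not known from these data.

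Alpha satellite is the tandem repeat on which human centromeres form. The DNA beside it, called pericentromeric, is a mixture of older repeats, duplicated segments and, farther out, unique sequence with genes, and much of it is packed as heterochromatin. ORCA, the product of the gene LRWD1, binds the origin recognition complex, which marks sites where replication can start, and is known to associate with heterochromatin. No table of genes or repeats on T2T-CHM13 was used here, so the array edges are taken as given, to the nearest 0.1 Mb, and positions carry no annotation.

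Peaks were nearly absent inside the arrays and appeared again within 250 kb outside them. Inside the arrays, peaks covered 0.720 kb per Mb in siORCA 1, 0.425 in siORCA 2, 0.346 in control 1 and 0.707 in control 2. In the flanks they covered 24.8 kb per Mb in siORCA 1, 19.8 in siORCA 2, 16.4 in control 1 and 19.0 in control 2. The rest of the same chromosomes held 27.7, 20.9, 18.8 and 21.9 kb per Mb in the same order of samples. The arrays therefore lay far below both other compartments in every list, and the flanks lay a little below the rest in every list.

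As a log2 ratio, the density in the flanks over that in the rest of the same chromosomes averaged −0.16 ± 0.06 (SD, n = 4), negative in 4 of 4 samples (exact sign-flip permutation test, two-sided, p = 0.13, the smallest possible). The arrays stood at −5.40 ± 0.36 on the same scale (SD, n = 4; exact permutation p = 0.13). The mean for the flanks is the net of unlike chromosomes, and the median over the 12 chromosomes was −0.55. Reads from repeats are hard to place, and how such reads were handled is not stated; the part of mapping in the low values was not tested.

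Moving outward in bins of 250 kb, coverage relative to the rest of the same chromosomes began low, peaked early, sank again and rose beyond 1.5 Mb. In the first 250 kb it was 0.546 of the rest in siORCA 1, 0.497 in siORCA 2, 0.488 in control 1 and 0.588 in control 2. From 250 to 500 kb it was 1.04, 1.15, 1.11 and 0.947 in that order, and from 500 to 750 kb it was 0.710, 0.799, 0.762 and 0.745. All 4 lists shared this order of bins. From 2750 to 3000 kb the ratio was 1.16 in siORCA 1, 1.19 in siORCA 2, 1.02 in control 1 and 1.10 in control 2, above the rest in each.

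**Figure D1:**
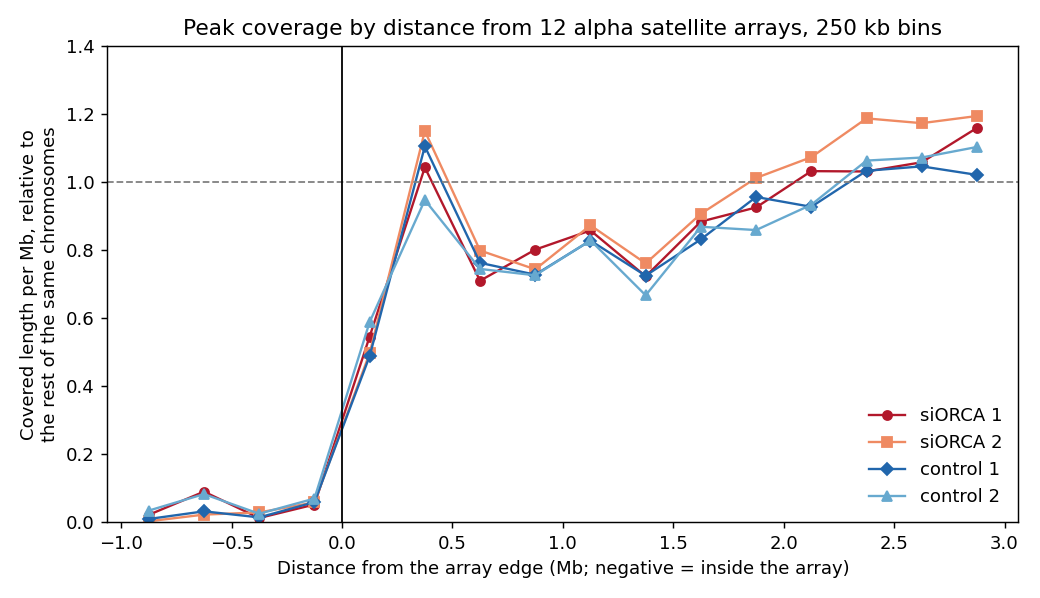
Length covered by peaks per Mb in bins of 250 kb, divided by the same list's density in the rest of the 12 chromosomes (y axis), against distance from the array edge in Mb (x axis, negative inside the array), with 1 line per list. All 4 lines lie below 0.1 inside the arrays, between 0.488 and 0.588 in the first bin outside, and near 1 at 250 to 500 kb and beyond 2 Mb.

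The rise at the edge was steep. In bins of 50 kb, the mean over the 4 lists was 4.34 kb per Mb in the first 50 kb, 8.84 in the next, 10.96 from 100 to 150 kb, 15 from 150 to 200 kb and 20.3 from 200 to 250 kb. In the first 50 kb, 16 of 24 flanks had no peak in any list. The 500 kb next to the array had a lower density than the stretch from 2 to 3 Mb, by a log2 ratio of −0.43 in siORCA 1, −0.49 in siORCA 2, −0.34 in control 1 and −0.44 in control 2 (mean −0.43 ± 0.06, SD, n = 4; exact sign-flip permutation p = 0.13, the smallest possible). With a near bin of 250 kb in place of 500 kb the mean was −1.02.

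Beyond the flanks, density did not go on rising. In bins of 1 Mb the mean ratio to the rest was 0.774, 0.844 and 1.07 over the first 3 Mb. It was then 0.922 from 3 to 4 Mb, 0.981 from 4 to 5 Mb, 1.08 from 5 to 6 Mb and 0.865 from 9 to 10 Mb. The values past 3 Mb thus lay on both sides of 1. The third Mb was above 1 in all 4 lists. It stood at 1.07 in siORCA 1, 1.16 in siORCA 2, 1.01 in control 1 and 1.04 in control 2. The bin from 5 to 6 Mb was also above 1 in each list, at 1.09, 1.10, 1.04 and 1.08 in that order. So was the bin from 6000 to 7000 kb, at 1.08, 1.11, 1.08 and 1.11. Both bins from 7000 to 9000 kb were below 1 in each list.

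The early crest from 250 to 500 kb came to a large part from few flanks. On the long-arm side of chromosome 8, peaks in that bin covered 37.9 kb in siORCA 1, 28.6 kb in siORCA 2, 28.2 kb in control 1 and 24.98 kb in control 2. This was between 19.8% and 22.6% of all that was covered in this bin over 24 flanks. The short-arm side of chromosome 12 came second in every list, with 17.5 kb in siORCA 1, 15.4 kb in siORCA 2, 18.6 kb in control 1 and 12.4 kb in control 2. Without both, a choice made after the values were seen, the crest over the other 22 flanks fell to 21.4, 18.2, 14.1 and 15.9 kb per Mb in siORCA 1, siORCA 2, control 1 and control 2. The next bin of the same 22 flanks held 18.7, 15.4, 13.0 and 14.5 kb per Mb, lower in each list. From 1000 to 1250 kb, however, all 24 flanks together held 23.7, 18.2, 15.6 and 18.2 kb per Mb in the same order. Without the 2 flanks, the bin from 250 to 500 kb thus still lay above the next bin in each list. Bins farther out were not computed without these 2 flanks, so the values from 1000 to 1250 kb are not like for like.

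Fewer peaks, not weaker or narrower ones, marked the stretch next to the arrays. The first 500 kb held 65.8 peaks per Mb in siORCA 1, 44.8 in siORCA 2, 37.8 in control 1 and 52.9 in control 2, against 108.8, 66.02, 59.64 and 78.52 per Mb in the rest of the same chromosomes. The median width there was 196.5 bp in siORCA 1, 264.5 bp in siORCA 2, 246 bp in control 1 and 208 bp in control 2. In the rest it was 164, 207, 210 and 186 bp in the same order, narrower in every list.

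The authors' fold enrichment, each peak's value over the caller's background, differed little between flanks and the rest. Its median in the flanks was 4.49 in siORCA 1, 4.16 in siORCA 2, 3.85 in control 1 and 3.91 in control 2, and in the rest 4.48, 4.18, 3.80 and 3.92. The log2 ratio of the medians averaged 0.0025 ± 0.010 (SD, n = 4), with 2 samples on each side of 0 (exact sign-flip permutation p = 0.875). Against only the 3 to 6 Mb stretch of the same chromosomes it averaged 0.0123 and was positive in 4 of 4 samples (exact permutation p = 0.13). In the first 500 kb the medians were 4.45, 4.24, 3.92 and 3.92 in the same order of samples.

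Flanks differed among themselves far more than samples did. The mean covered length per flank ran from 10.9 kb to 164 kb, a ratio of 14.95 over equal lengths of 3 Mb. The 3 fullest flanks were the long-arm side of chromosome 17, the long-arm side of chromosome 2 and the short-arm side of chromosome 20. On chromosome 17 the long-arm flank held 194.5 kb in siORCA 1, 187 kb in siORCA 2, 122 kb in control 1 and 151 kb in control 2. The long-arm flank of chromosome 2 held 190.2, 169, 127 and 121 kb in that order, and the short-arm flank of chromosome 20 held 183, 139, 136 and 147 kb. These lengths are not scaled to the lists. As shares of the list, both siORCA lists were above both control lists in the first 2 of these flanks. In the third they were below, at 0.213% and 0.217% in siORCA against 0.232% and 0.219% in control. Of the 997 windows of 3 Mb in the genome whose mean covered length reached 5 kb, 8.43% were above and 15.9% below in this way.

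The 3 emptiest were the short-arm side of chromosome 3 and both sides of chromosome 5. The chromosome 3 flank held 12.8 kb in siORCA 1, 7.96 kb in siORCA 2, 7.67 kb in control 1 and 15.4 kb in control 2. The chromosome 5 flanks held 16.2, 10.5, 9.02 and 16.6 kb on the short-arm side and 15.8, 9.68, 12.8 and 16.3 kb on the long-arm side, in the same order. In these sparse flanks siORCA 1 and control 2, the lists with the most peaks, were the high pair. Over all 24 flanks the rank correlation of covered length between lists was 0.926 to 0.964 over the 6 pairs of lists, given as a description. The 6 fullest flanks held between 51.9% and 55.9% of all covered flank length in each list.

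**Figure D2:**
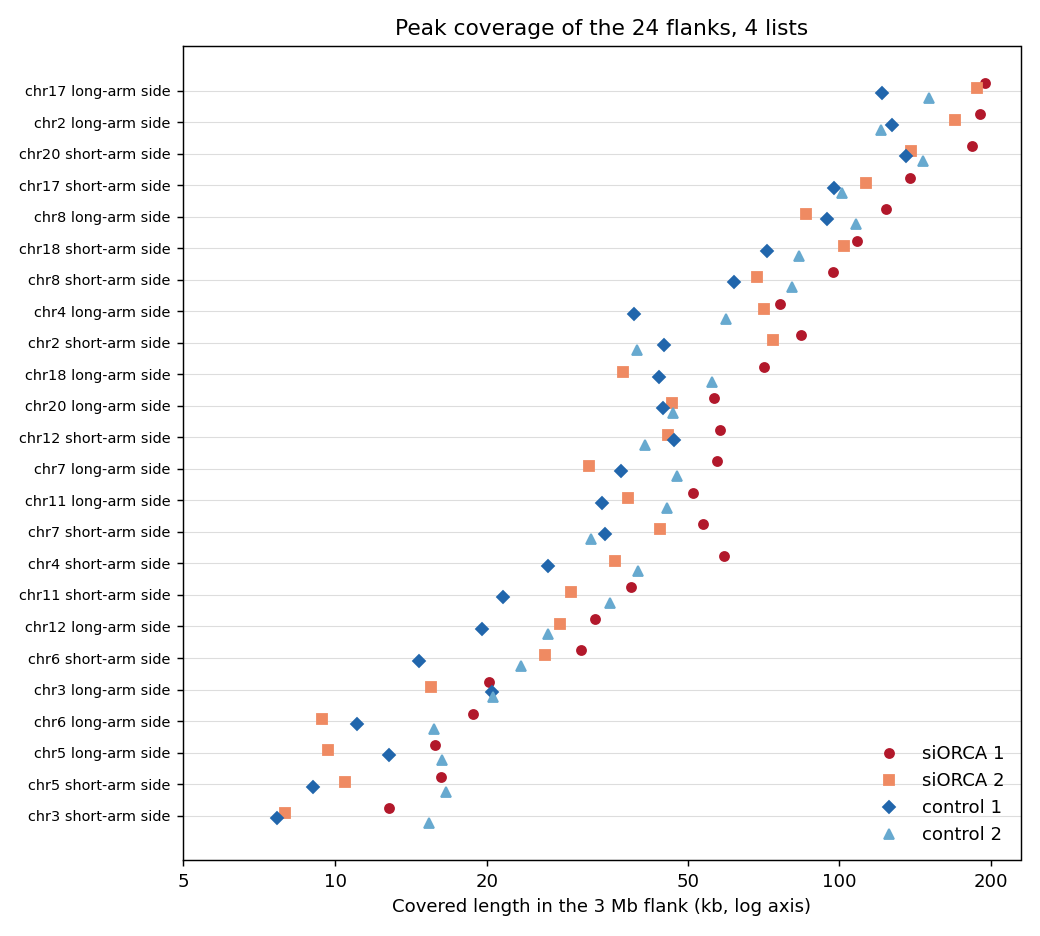
Covered length in kb on a log axis (x) for each of the 24 flanks (y), sorted by the mean of the 4 lists, with 1 point per list. Flanks run from about 8 to 15 kb on the short-arm side of chromosome 3 up to 122 to 195 kb on the long-arm side of chromosome 17.

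Chromosomes fell on either side of their own background. The flanks were denser than the rest of their chromosome in every list on chromosomes 2, 4, 8 and 18, and sparser in every list on the other 8 of 12. On chromosome 18 the ratio was 1.45 in siORCA 1, 2.35 in siORCA 2, 1.65 in control 1 and 1.51 in control 2. On chromosome 4 it was 1.76, 2.50, 1.34 and 1.35, and on chromosome 2 it was 1.70, 1.82, 1.55 and 1.26 in the same order. On chromosome 5 it was only 0.232, 0.190, 0.243 and 0.294, and on chromosome 3 it was 0.229, 0.220, 0.285 and 0.304. Chromosomes 4 and 18 have sparse arms, with 7.14 to 12.9 kb per Mb and 9.89 to 20.6 kb per Mb in the rest.

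Long-arm sides were a little denser than short-arm sides. The long-arm sides held 25.2 kb per Mb in siORCA 1, 20.3 in siORCA 2, 16.8 in control 1 and 19.8 in control 2, and the short-arm sides 24.5, 19.3, 15.9 and 18.2. The log2 ratio averaged 0.08 ± 0.03 (SD, n = 4), positive in 4 of 4 samples (exact sign-flip permutation p = 0.13, the smallest possible). This is small beside the spread between flanks.

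Long stretches without any peak set the flanks apart from the chromosome arms. Merging all 4 lists, 37 gaps of over 100 kb made up 11.4% of the flanks, in 16 of the 24, whereas 80 such gaps made up 0.567% of the rest of the same chromosomes. The longest in the flanks was 1067 kb and the longest in the rest 180 kb. In single lists, gaps of that size took 18.1% of the flanks in siORCA 1, 29.5% in siORCA 2, 29.9% in control 1 and 20.2% in control 2, against 5.52%, 25.6%, 20.7% and 9.30% of the rest. The difference averaged 9.15 ± 3.76 percentage points (SD, n = 4) and was positive in 4 of 4 lists (exact sign-flip permutation p = 0.13, the smallest possible). It was smallest in siORCA 2, at 3.89 points. The longest gap of that list was 1400 kb in the rest and 1289 kb in the flanks, whereas in each other list the longest lay in the flanks.

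The longest flank gap of the merged lists lay on the short-arm side of chromosome 3 from 90415025 to 91482440. The second lay on the short-arm side of chromosome 5 from 46486637 to 47000000, where it reached the array edge. The third lay on the long-arm side of chromosome 5 from 50028021 to 50464277. They spanned 1067, 513 and 436 kb. Of the 37 gaps, 8 touched the array edge, so most lay away from it. The long-arm side of chromosome 20 held 5 gaps that took 39.0% of it, and its 2 longest began 2292 and 2623 kb from the array. The long-arm sides of chromosomes 2, 3, 8 and 17 and the short-arm sides of chromosomes 4, 6, 12 and 18 had no gap of that size.

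Outside the gaps of the merged lists, the flanks were as dense as the arms. Peaks then covered 28.0 kb per Mb of flank in siORCA 1, 22.3 in siORCA 2, 18.5 in control 1 and 21.5 in control 2, and 27.8, 21.0, 18.9 and 22.1 kb per Mb of the rest. The ratios were 1.01, 1.06, 0.977 and 0.972 in that order, a description, since the gaps were chosen by the absence of peaks. Whether these gaps hold repeats in which reads could not be placed was not tested.

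**Figure D3:**
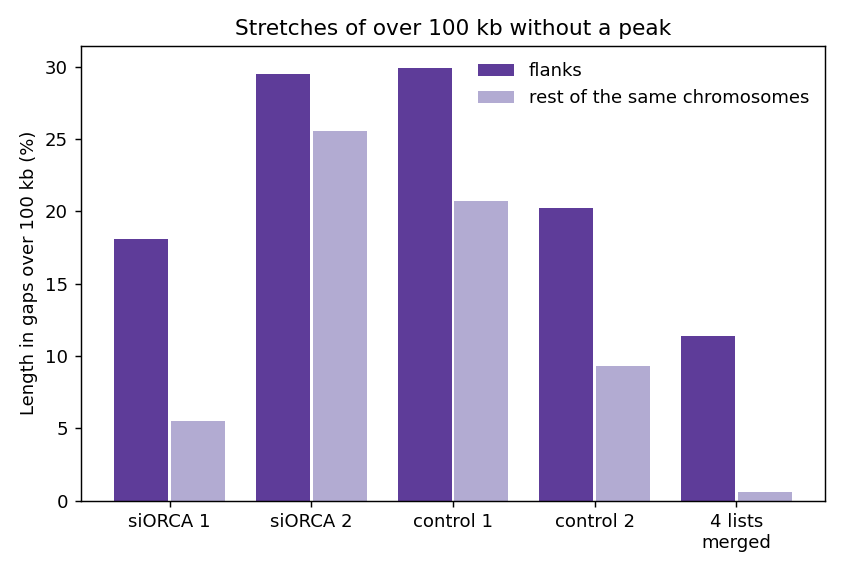
Percent of length (y axis) that lies in stretches of over 100 kb without a peak, for the flanks and for the rest of the same 12 chromosomes, in each list and in the 4 lists merged. The flanks exceed the rest in every list, by 3.89 points in siORCA 2 up to 12.6 points in siORCA 1, and hold 11.4% against 0.567% in the merged lists.

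**Figure D4:**
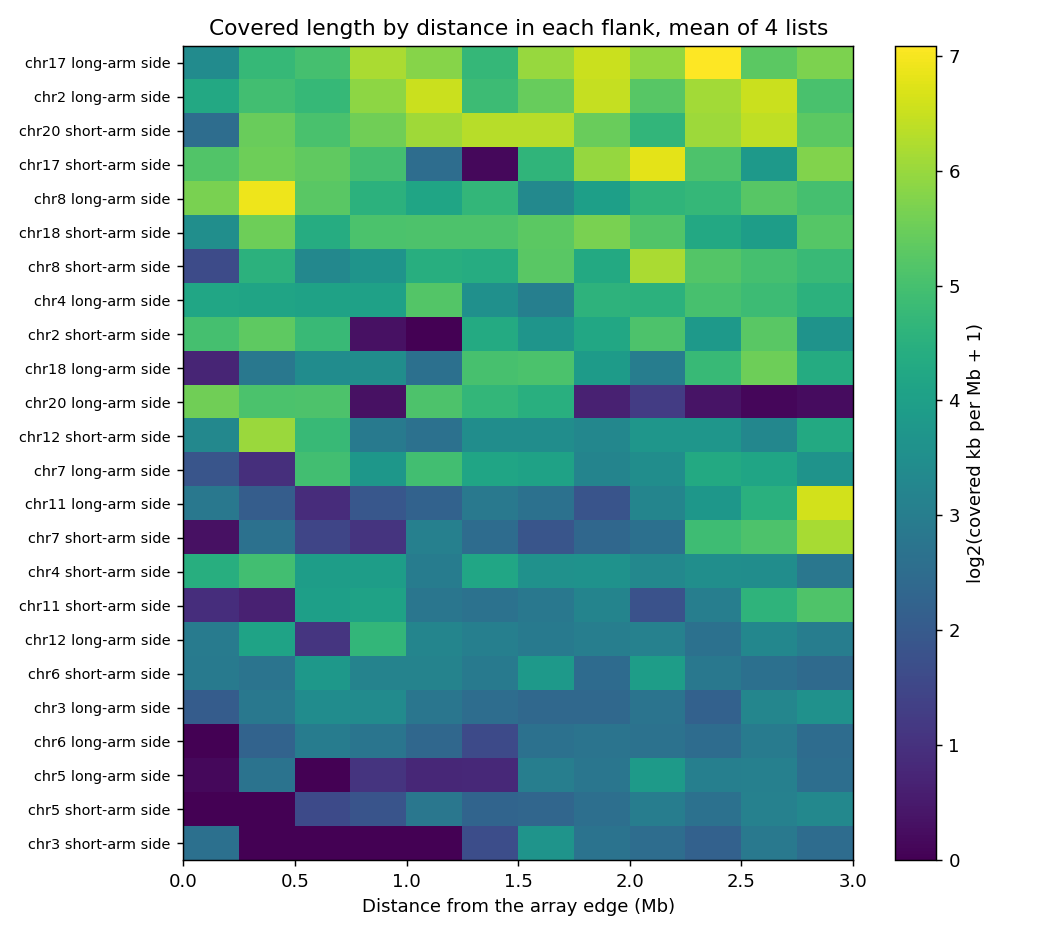
Covered length in bins of 250 kb (x axis, distance from the array edge in Mb) for each flank (y axis), as log2 of the mean kb per Mb over the 4 lists plus 1. Dark cells are bins with few or no peaks, such as those from 0.25 to 1.25 Mb on the short-arm side of chromosome 3. Of 288 bins, 9 had no peak in any list.

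The distance from the array to the first region found in all 4 lists varied widely, with a median of 274 kb over the 24 edges. The nearest was on the short-arm side of chromosome 3, from 91699489 to 91699844, which ends 0.156 kb from the edge, in the flank with the least coverage. The authors' fold enrichment there was 6.58 in siORCA 1, 4.15 in siORCA 2, 3.73 in control 1 and 3.99 in control 2. Next came regions on chromosome 2, from 94716847 to 94717273 on the long-arm side, 16.9 kb out, and from 92263738 to 92264236 on the short-arm side, 35.8 kb out. The farthest first regions were on the long-arm side of chromosome 11, at 2085 kb, the short-arm side of chromosome 5, at 1050 kb, and the long-arm side of chromosome 18, at 698 kb. An array edge given to 0.1 Mb cannot place the shortest of these distances exactly.

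The shared sites with the highest fold in each list lay between 814 and 2921 kb from the arrays. On the short-arm side of chromosome 17, a region from 20509371 to 20509698, 2891 kb out, had a fold enrichment of 57.8 in siORCA 1, 40.4 in siORCA 2, 83.3 in control 1 and 49.5 in control 2. It was the strongest flank peak in both control lists and ranked 2 in siORCA 2 and 7 in siORCA 1. A region on the short-arm side of chromosome 20 from 23697041 to 23698440, 2703 kb out, had a fold of 17.6 in siORCA 1, 88.4 in siORCA 2, 38.7 in control 1 and 21.5 in control 2. It ranked 1 in siORCA 2 and 146 in siORCA 1, so the siORCA lists lay at both extremes. These sites were picked for a high fold, and ranks from lists of different length show no change.

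The others picked by the same rule differed in how far 1 list led. On the long-arm side of chromosome 8, the region from 48139491 to 48140464 had a fold of 73.7 in siORCA 1, against 6.13 in siORCA 2, 7.01 in control 1 and 11.01 in control 2. On chromosome 17, regions from 29285936 to 29286057 and from 22585628 to 22587167 were also led by siORCA 1, at 69.4 and 60.0, where siORCA 2 had 6.27 and 25.9. The third in siORCA 2, on chromosome 17 from 21644658 to 21646855, had folds of 39.2 in siORCA 1, 29.6 in siORCA 2, 17.8 in control 1 and 20.3 in control 2. The region on chromosome 17 from 29452181 to 29453018 was led by control 1, at 35.2, with 20.3 in siORCA 1, 21.7 in siORCA 2 and 20.3 in control 2. The chromosome 3 region from 99321119 to 99322219 was chosen in control 2, at 32.5, and had 21.2 in siORCA 1, 24.5 in siORCA 2 and 16.5 in control 1. So was the chromosome 4 region from 56095516 to 56095829, at 26.1, where siORCA 1 had 7.76, siORCA 2 had 7.94 and control 1 had 7.58.

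Flank peaks recurred between samples about as often as other peaks. Regions found in all 4 lists made up 10.8% of flank regions (1182 of 10936) and 10.1% of regions in the rest of the same chromosomes. Counted by peaks, 19.6% in siORCA 1, 28.9% in siORCA 2, 34.98% in control 1 and 26.6% in control 2 lay in such regions, against 18.8%, 29.2%, 32.1% and 25.01% in the rest. The difference averaged 1.25 ± 1.31 percentage points (SD, n = 4), positive in 3 of 4 samples (exact sign-flip permutation p = 0.25). Within 500 kb of the array, 13.6% of 1257 regions were in all 4 lists, and from 2.5 to 3 Mb 9.78% of 2280 were. The share did not fall steadily between, as it was lowest from 500 to 1000 kb, at 9.10%, and 11.8% from 1000 to 1500 kb. The Jaccard index, the length shared by a pair of lists over the length of their union, was 0.307 between the siORCA lists and 0.187 between the control lists in the flanks, and 0.276 and 0.182 in the rest of the same chromosomes. In the flanks, pairs of a siORCA and a control list lay between these, from 0.189 for siORCA 1 with control 2 to 0.290 for siORCA 2 with control 1, so the index did not follow the groups.

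The flanks held a slightly larger part of the covered length in siORCA. Their share of the whole list was 2.07% in siORCA 1, 2.23% in siORCA 2, 2.01% in control 1 and 2.04% in control 2, so both siORCA lists lay above both control lists. As a share of the number of peaks they overlapped, at 2.04% and 2.20% in siORCA against 1.98% and 2.06% in control (exact permutation p = 0.67). The means were 2.15 ± 0.11% in siORCA and 2.03 ± 0.02% in control (SD, n = 2 each), a difference of 0.123 percentage points (exact permutation p = 0.33, which is as low as 2 against 2 can reach). The difference was 0.199 without siORCA 1 and 0.047 without siORCA 2. Without chromosome 2 it was 0.0526 and the groups overlapped, at 1.90% and 2.02% in siORCA and 1.86% and 1.95% in control. They also overlapped once peaks whose −log10 q was under 3 were left out, at 2.08% and 2.20% in siORCA against 2.08% and 2.01% in control.

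The profile by distance gave no stable order of the groups. The log2 ratio of near to far density was −0.46 ± 0.04 in siORCA and −0.39 ± 0.07 in control (SD, n = 2 each; exact permutation p = 0.67). The difference was −0.07 and the groups overlapped. At equal list length (−0.069) and by peak starts per Mb (−0.11) siORCA lay below control without overlap, and with the median over chromosomes (0.20) it lay above (exact permutation p = 0.33 each). With a smallest p of 0.33, a difference between these profiles is not detectable at n = 2 by this test.

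Of the 24 flanks taken as windows of 3 Mb, 6 took a larger share of each siORCA list than of either control list, and 4 took a smaller one. Among the 997 windows of that size whose mean covered length reached 5 kb, 8.43% were above and 15.9% below in this way. The 6 were both sides of chromosome 2, the short-arm sides of chromosomes 6, 7 and 18 and the long-arm side of chromosome 17. The 4 were the long-arm sides of chromosomes 3, 5 and 8 and the short-arm side of chromosome 20. None of the 24 passed the threshold in limma (lowest adjusted p = 0.940).

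In windows of 1 Mb, 57 of the 72 flank windows had enough coverage to be tested with limma. None (0) was called higher and none (0) lower in siORCA, where 0.0812% and 0% of the 2463 windows of the genome were called, and 2 of the 57 flank windows had an unadjusted p under 0.05, both higher, beside 87 of the 2463. The median log2 difference was 0.04 over the flank windows and −0.09 over all windows. Both low-p windows were on the short-arm side of chromosome 2, the first from 89300001 to 90300000, 2 to 3 Mb from the array. Peaks there covered 35.3 kb in siORCA 1, 31.3 kb in siORCA 2, 16.3 kb in control 1 and 12.7 kb in control 2, with no overlap between groups (log2 difference in share 0.91, SE 0.24, limma adjusted p = 0.108). It passed the threshold with the median of all differences centred on 0 (log2 1.00, limma adjusted p = 0.0204) and without siORCA 1 (log2 1.04, limma adjusted p = 0.016), a fit in which the lone siORCA sample is assumed to vary like the controls. It passed in none of the 9 other alternatives, and without siORCA 2 the limma adjusted p was 1.00.

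The second window, the Mb next to the array from 91300001 to 92300000, held 33.4 kb in siORCA 1, 29.4 kb in siORCA 2, 17.7 kb in control 1 and 16.9 kb in control 2 (log2 difference 0.58, SE 0.23, limma adjusted p = 0.934). The third by p above control was on the long-arm side of chromosome 4 from 57200001 to 58200000, at 30.7 and 32.5 kb in siORCA and 17.4 and 23.6 kb in control (log2 0.37, SE 0.22, limma adjusted p = 0.934). Of windows below control, the smallest p values were on the long-arm side of chromosome 8 from 47300001 and from 48300001 (log2 −0.43 and −0.28) and of chromosome 18 from 21900001 (log2 −0.27). On chromosome 8 the groups did not overlap as shares of the list, and on chromosome 18 they did.

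The short-arm flank of chromosome 2 had the largest log2 difference of the 24 (0.64, SE 0.22, limma adjusted p = 0.940), at 84.0 and 73.8 kb in siORCA and 44.9 and 39.6 kb in control. As a share of the list it held 0.0974% and 0.115% in siORCA and 0.0767% and 0.0591% in control. From 750 to 1250 kb, most of it inside a gap of 432 kb, 2 peaks were found in all, both in control 2. From 2500 to 2750 kb, peaks covered 13.7 and 12.4 kb in siORCA and 6.09 and 5.41 kb in control. These lengths are not scaled to the lists, which cover 86.2 and 64.0 Mb in siORCA and 58.5 and 67.1 Mb in control, and the flank is described here because its difference was the largest.

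**Figure D5:**
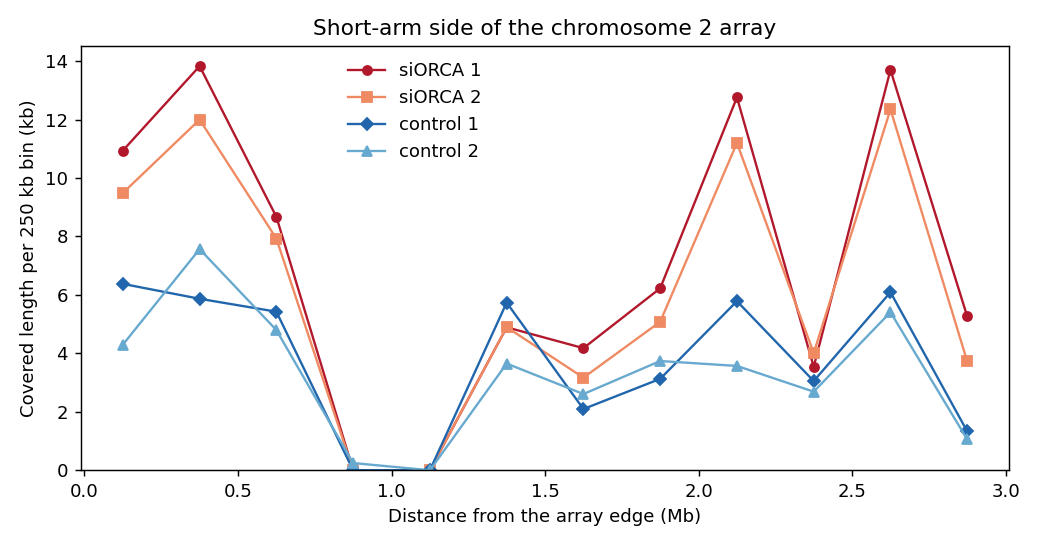
Covered length in kb per bin of 250 kb (y axis) on the short-arm side of the chromosome 2 array, against distance from the array edge in Mb (x axis), with 1 line per list. At 2500 to 2750 kb the siORCA lists cover 13.7 and 12.4 kb and the control lists 6.09 and 5.41 kb, not scaled to list length, and all lists are empty or nearly so from 750 to 1250 kb.

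Regions found in both siORCA lists and neither control list numbered 719 in the flanks and covered 227 kb, and those found the other way round numbered 170 and covered 62.4 kb. They made up 6.57% and 1.55% of flank regions, beside 5.44% and 1.67% of regions over the whole genome. All 24 flanks had more of the first kind than of the second, as has the genome. Without control 1 the order turned, with 1207 regions of the first kind and 2114 of the second in the flanks, and 10.7% and 21.3% over the genome. At equal list length there were 434 and 205. The share of the first kind was 19.6% on the short-arm side of chromosome 2 (62 of 317, with 6 of the second kind), 10.7% on the short-arm side of chromosome 7 and 8.67% on the long-arm side of chromosome 4. Without chromosome 2 it was 5.99% in the flanks. With chromosome 2 kept, the share was 5.98% from 3 to 6 Mb out and 5.46% in the rest of the 12 chromosomes. In the rest of chromosome 2 it was 6.14%. On the long-arm side of chromosome 17, 60 of 932 regions (6.44%) were of the first kind, near the share over all flanks, and 2 (0.215%) were of the second.

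The widest such regions were, with 1 exception, covered unevenly. The widest found in siORCA alone was on the short-arm side of chromosome 11 from 48248912 to 48250402, with 1491 bp in siORCA 1 but 151 bp in siORCA 2. Others were on the long-arm side of chromosome 7 from 64980130 to 64981581 (1452 and 470 bp) and on the short-arm side of chromosome 2 from 92057740 to 92059063 (1324 and 1187 bp). The widest found in control alone were on the short-arm side of chromosome 8 from 43027697 to 43030079, with 151 bp in control 1 and 2383 bp in control 2, on the short-arm side of chromosome 20 from 24343611 to 24344821 (437 and 1122 bp), and on the long-arm side of chromosome 8 from 47284513 to 47285624 (210 and 1112 bp). Only the one on chromosome 2 was covered to a like extent in both samples of its group.

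Inside the arrays, most of the few peaks lay on 2 chromosomes in every list but siORCA 2. The 12 arrays together held 118 peaks in siORCA 1, 81 in siORCA 2, 61 in control 1 and 124 in control 2 over 42.6 Mb. The arrays of chromosomes 3 and 20 held 82.2%, 43.2%, 67.2% and 68.5% of them in that order. In siORCA 2 the chromosome 4 array held 16 peaks, against 0 in siORCA 1, 7 in control 1 and 8 in control 2. On chromosome 3 there were 70 peaks in siORCA 1 and 51 in control 2, but 14 in siORCA 2 and 16 in control 1. On chromosome 20 the numbers were closer, at 27, 21, 25 and 34 peaks in siORCA 1, siORCA 2, control 1 and control 2. Of 244 regions inside arrays, 10 were in all 4 lists, 6 of them on chromosome 20. No peak (0 in each list) lay inside the array of chromosome 6.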

How the data were processed

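Per the submitters' processing notes, BWA, SAMtools and MACS2 were used on T2T-CHM13; not given in the sources used here are versions, settings, the caller's background and the handling of reads that map to several repeats. The authors deposited 1 list of broad peaks per sample, with a score, a linear fold enrichment, a −log10 p-value and a −log10 q-value for every peak. The lists hold no read counts, so depth is unknown and no counting interval can be given. The 2 genomic DNA samples were not analysed here.

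Each peak was placed by its start. Covered length is the sum of peak lengths, and a chromosome's length was taken as the end of its last peak in any list. The rest of the same chromosomes leaves out arrays and flanks. Regions are peaks of the 4 lists merged where they touch or overlap. Values that compare parts of one list were tested over the 4 samples with an exact two-sided sign-flip permutation test, whose smallest p is 0.13. Groups were compared with an exact two-sided permutation test, whose smallest p with 2 against 2 is 0.33. For windows of 1 Mb tiled outward from the array edges, log2((covered bp + 1000) / total covered bp) was fitted with limma 3.58.1 in R 4.3.3 (eBayes with trend, Benjamini-Hochberg adjustment over the 2463 windows whose mean reached 5 kb, threshold 0.05). The fold changes are on this scale, which understates sparse windows. The rest was done with scipy 1.17.1, pandas 2.3.3 and numpy 2.4.6 under Python 3.11.15.

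The arrays, the lists of results and the tests were chosen with earlier results of these data known. The rule for naming took the 3 flanks with the most and the 3 with the least covered length, the 3 flank windows each way with the smallest p, the 3 strongest shared regions of each list, the 3 widest regions found in one group only, the 3 nearest and 3 farthest first shared regions, and the 3 longest gaps. The alternatives were a stricter list (−log10 q from 3 up), lists cut from the weakest peak to equal covered length, leaving out each replicate, a replicate block, other flank widths, window sizes, filters, pseudocounts and summaries and, chosen after seeing the data, a crossed block and each chromosome left out. Same-numbered samples tended to deviate in opposite directions from their group means (correlation −0.46 over 2463 windows and −0.22 over the flank windows). This value cannot decide whether the numbers pair the samples, because the longer list bears a different number in each group. List length and a shared batch were not separated.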

Additional observations from a re-analysis of the deposited data

How the results depend on the processing

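Across 11 results and 149 alternatives, 133 kept their direction, or stayed within 1.5 times for counts. The exact tests cannot fall below the threshold of 0.05 at these sample numbers, so for them only a change of sign could show. Leaving out a replicate cannot turn a mean whose 4 samples share a sign, and a block leaves a difference of means as it was. Some of the 133 therefore could not have changed, and the number is no measure of robustness. The lower density of the flanks (log2 −0.55 to −0.06) and of the arrays (−5.67 to −5.14), and the lower density near the array (−1.02 to −0.28), kept their sign throughout, although with the stricter list the last was negative in 3 of 4 samples only (exact permutation p = 0.25). The difference in near to far density between groups turned to 0.203 with the median over chromosomes. The ratio of median folds turned to −0.00337 with the stricter list and −0.000769 at equal list length. It was 0.0123 against the 3 to 6 Mb stretch, and ran from −0.00194 to 0.0051 with each replicate left out. Flank windows called higher numbered 1 with median centring and 0 to 1 with each replicate left out. Regions found only in siORCA numbered 434 at equal list length and 1207 to 3603 with each replicate left out; those found only in control numbered 38 with the stricter list and 298 to 2114 with each replicate left out, since 1 sample then stands for a group, and without control 1 they outnumbered those found only in siORCA. At equal list length the shares of the 2 kinds were 5.17% and 2.44% in the flanks, against 4.32% and 2.67% over the genome. With the replicate block the share of the flanks differed by the same 0.123 points, since a block leaves a difference of group means unchanged. Only the p could move (exact sign-flip permutation test of the differences within a number, p = 0.5). In limma, 0 flank windows were called with the replicate block and 0 with the crossed replicate block. The cause of these changes was not tested. Depth is unknown and the lists differ in length, which limits every count of peaks.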
